A study of Homo sapiens with 26 samples.

Results

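PTMA and 9 other genes that code for acidic histone chaperones and related acidic nuclear proteins were followed across 26 ribosome footprint libraries. The 10 genes were chosen by name: PTMA, PTMS, SET, ANP32A, ANP32B, ANP32E, NAP1L1, NPM1, NCL and HMGB1, out of 19478 coding transcripts listed in each of 4 count tables. All 10 were found in every table, as 1 transcript each. The choice rested on PTMA, which had been seen to fall with the NEBNext and Ribo-Zero Gold rRNA depletion kits. PTMA with these kits in HEK293T is therefore described without a test. The choice named no cell line, so PTMA with NEBNext in K562 is a description too. The question asked of the other genes was whether coding sequences with long acidic, purine-rich tracts move with PTMA in each kit and cell line.

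The libraries hold ribosome-protected mRNA fragments from cycloheximide-treated lysates digested with RNase I, and groups differ in the depletion of rRNA. HEK293T (human embryonic kidney cells, fragments labelled 15 to 35 nt) has 2 libraries each without depletion and with Ribo-Zero Gold, RiboCop or NEBNext. K562 (a chronic myeloid leukaemia line) has a size-selection experiment with 1 undepleted and 1 NEBNext library at each of 20 to 34 nt and 20 to 60 nt. Both undepleted libraries of that experiment are so titled but carry another label naming NEBNext, so each direction drawn from it rests on the titles. A further K562 experiment (20 to 34 nt) has 2 libraries each for no depletion, FastSelect, riboPools, and riboPools eluted cold, and 4 single Ribo-Zero Plus libraries (neither additive, oligos, formaldehyde, or both). HEK293FT, a relative of HEK293T, has 1 undepleted library and 1 depleted with custom oligos (15 to 35 nt). No genotype or drug treatment distinguishes the groups.

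Histone chaperones are acidic proteins that bind the basic histones, escort them through the cell and load or remove them from DNA without using ATP. Their binding surfaces often include long runs of glutamate and aspartate. Glutamate codons are GAA and GAG and aspartate codons are GAU and GAC, so a run of glutamate is written in purines alone, whereas each aspartate codon ends in a pyrimidine. NEBNext and Ribo-Zero Plus remove rRNA by nuclease digestion of RNA bound to DNA probes. Beads carry rRNA away in Ribo-Zero Gold, RiboCop and riboPools. FastSelect keeps rRNA from being reverse transcribed.

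The most acidic stretch of each protein is where the coding sequence is richest in these codons, and 5 of the 10 are shown because they span the range of results with NEBNext in HEK293T: PTMA and PTMS, which had the largest falls there, HMGB1 and NAP1L1, which were not called, and NPM1, which had the smallest of the called falls. Each line gives the 90 bases that code the 30-residue window with the most glutamate or aspartate, taken from GENCODE release 29 transcripts (GRCh38), with the longest unbroken purine run in capitals.
PTMA: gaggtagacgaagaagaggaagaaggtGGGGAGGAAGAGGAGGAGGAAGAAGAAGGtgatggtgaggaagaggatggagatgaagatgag
PTMS: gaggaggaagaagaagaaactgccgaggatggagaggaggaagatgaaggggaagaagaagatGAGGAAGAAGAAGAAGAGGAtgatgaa
HMGB1: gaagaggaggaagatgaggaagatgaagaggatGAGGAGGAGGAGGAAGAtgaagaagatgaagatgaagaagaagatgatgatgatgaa
NAP1L1: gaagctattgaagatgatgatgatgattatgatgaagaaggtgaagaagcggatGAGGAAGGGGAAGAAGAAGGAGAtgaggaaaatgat
NPM1: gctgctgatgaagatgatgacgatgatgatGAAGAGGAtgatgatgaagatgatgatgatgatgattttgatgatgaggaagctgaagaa
The PTMA and PTMS windows each hold 81 purines in 90 bases, and HMGB1, which was not called with NEBNext, holds 80. NAP1L1 holds 72. NPM1, whose run is mostly aspartate, holds 63 purines and no run over 8 bases in that window.

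The tracts also differ in how much of the gene they fill. PTMA (prothymosin alpha, a small unfolded nuclear protein that binds linker histone H1; ENST00000341369.11, chr2:231708516-231713536, plus strand) has a coding sequence of 333 bases. Its tract codes residues 52 to 81 across exons 3 and 4 and makes up 27.03% of that sequence. PTMS (parathymosin, its close relative; ENST00000619580.4, chr12:6766375-6770952, plus strand) has 306 coding bases, of which the tract takes 29.4%, also across exons 3 and 4. The coding sequence of PTMA is 74.5% purine and that of PTMS 80.4%, against a median of 52.0% over the 18879 transcripts with a coding sequence. Only 0.0212% of those transcripts were at or above PTMA.

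The 3 ANP32 genes code leucine-rich repeat proteins with acidic tails. ANP32A (ENST00000465139.6, chr15:68778535-68820895, minus strand) and ANP32B (ENST00000339399.4, chr9:97983361-98015943, plus strand) were 65.2% and 64.8% purine. ANP32E (ENST00000583931.5, chr1:150218417-150236156, minus strand), a chaperone that removes the histone variant H2A.Z, was 66.8% purine and had the longest purine run of the 10, at 38 bases. SET (ENST00000322030.12, chr9:128689226-128696388, plus strand), a subunit of the inhibitor of histone acetyltransferases, was 63.2% purine. NAP1L1 (ENST00000618691.4, chr12:76036587-76085033, minus strand), a carrier of H2A-H2B dimers, was the lowest at 59.6%.

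NPM1 and NCL code nucleophosmin and nucleolin, the abundant acidic proteins of the nucleolus, and HMGB1 codes a DNA-bending chromatin protein with an acidic tail. NPM1 (ENST00000296930.9, chr5:171387648-171411137, plus strand) was 61.0% purine, NCL (ENST00000322723.8, chr2:231453531-231464594, minus strand) 64.6% and HMGB1 (ENST00000341423.9, chr13:30456704-30465965, minus strand) 65.7%. In NCL and HMGB1 all 30 residues of the best window were acidic. The tract is 4.23% of the NCL coding sequence and 14.0% of that of HMGB1, where it codes residues 186 to 215 in exon 5. The exact window of 30 residues held at least 22 glutamates or aspartates in each of the 10 proteins, and 190 of all transcripts reached 20.

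Library totals ran from 46858 counts in the undepleted K562 library of 20 to 60 nt to 5795774 in 1 of the libraries with cold elution. The 5 K562 markers used (3 fetal or embryonic globins of the beta cluster, HBZ and GATA1) had no counts in HEK293T and summed to 3409 to 12616 CPM in K562, where CPM is a count scaled to its library total. Of the 4 HEK293 markers, NEFL and NEFM carried the signal. PAX8 was at 0 in every HEK293T and HEK293FT library but had a few counts in K562, a mean of 10.5 (1.82 CPM) with cold elution. PAX2 reached 1 count in HEK293T and 6 in HEK293FT with custom oligos. The K562 marker HBZ had 3 counts (0.522 CPM) in that HEK293FT library. Replicate numbers name libraries and nothing says that they come from separate cultures, so the tests measure the spread between these libraries, which may be technical.

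In undepleted libraries PTMA and NPM1 had the highest footprint densities of the 10. Per kilobase of coding sequence in HEK293T, NPM1 stood at 3604 ± 154 CPM (SD, n = 2) and PTMA at 2864 ± 17.1. HMGB1 (1275 ± 68.1), NCL (1053 ± 26.7) and SET (882 ± 71.6) followed. ANP32A at 597 ± 7.60, NAP1L1 at 525 ± 89.9 and ANP32B at 489 ± 128 did not separate beyond the spread of the latter pair, and neither did PTMS at 296 ± 33.3 and ANP32E at 292 ± 46.0 from each other. In the K562 kit experiment NPM1 (2798 ± 3.29 CPM per kilobase) again stood above PTMA (1946 ± 100), and ANP32B (900 ± 89.1) stood above NCL (520 ± 3.28). In HEK293FT PTMA (3917 CPM per kilobase) stood above NPM1 (3524) in the single undepleted library. PTMA, NPM1, HMGB1 and SET have processed copies elsewhere in the genome, and how reads shared with them were counted is not given in the sources used here, so their levels are uncertain.

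With NEBNext in HEK293T, PTMA was lower, and 5 of the other 9 genes were lower too: PTMS, ANP32E, ANP32A, NCL and NPM1. None was higher, where 1.5% of all genes were. Across all 4410 genes tested, 1.75% were lower at an edgeR adjusted p under 0.05, and the median log2 fold change was 0.00, against -0.60 for the 9 genes. SET, ANP32B, HMGB1 and NAP1L1 did not pass the test. DESeq2 called 4 of the 9 and gave 1 no adjusted p.

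PTMA stood at 950 and 958 CPM in the undepleted HEK293T libraries and at 300 and 283 CPM with NEBNext. The pairs do not overlap, and the log2 fold change of -1.70 ± 0.17 (SE) is a description only. PTMS had 83.3 and 97.7 CPM undepleted and 37.5 and 4.97 CPM with NEBNext. These rest on 10 and 15 counts against 5 and 1, the last with an exact 95% interval of 0.126 to 27.7 CPM. PTMS fell by 2.29 ± 0.64 on the log2 scale (edgeR adjusted p 0.0153), with both NEBNext libraries below both undepleted ones. This call was lost without undepleted replicate 2 (edgeR adjusted p 0.182) and without NEBNext replicate 2 (0.512, log2 fold change -1.27).

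Within the ANP32 family ANP32A and ANP32E passed the test and ANP32B did not. The 3 genes were not tested against each other. ANP32A stood at 442 and 450 CPM undepleted and at 180 and 184 CPM with NEBNext, a tight fall in both libraries. Its log2 fold change was -1.27 ± 0.23 (edgeR adjusted p 6.67e-06). ANP32E went from 208 and 261 CPM to 105 and 74.6 CPM, again without overlap (log2 fold change -1.43 ± 0.32, edgeR adjusted p 0.000554). The call on ANP32E was lost without undepleted replicate 2 (edgeR adjusted p 0.127) and without NEBNext replicate 2 (0.147). ANP32B had 300 and 437 CPM undepleted and 300 and 209 CPM with NEBNext, where the groups touch, and did not pass (log2 fold change -0.60 ± 0.22, edgeR adjusted p 0.139).

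The 2 nucleolar genes fell by smaller, tightly measured amounts. NCL stood at 2283 and 2202 CPM undepleted and at 1298 and 1412 CPM with NEBNext (log2 fold change -0.70 ± 0.10, edgeR adjusted p 2.19e-09). NPM1 stood at 3274 and 3082 CPM undepleted and at 2348 and 2143 CPM with NEBNext (log2 fold change -0.49 ± 0.09, edgeR adjusted p 2.22e-06). Neither gene's groups overlapped.

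Among the remaining genes, SET had 775 and 691 CPM undepleted and 585 and 572 CPM with NEBNext. It was lower in both libraries but short of the threshold (log2 fold change -0.32 ± 0.16, edgeR adjusted p 0.317). NAP1L1 had 542 and 691 CPM undepleted against 660 and 741 CPM, which overlap (log2 fold change 0.20 ± 0.16, edgeR adjusted p 0.608). HMGB1 had 792 and 854 CPM undepleted against 960 and 915 CPM with NEBNext, both above the undepleted pair, and did not pass (log2 fold change 0.19 ± 0.14, edgeR adjusted p 0.559). Its value was thus positive where that of PTMA was negative, with 80 purines in its window beside 81 in that of PTMA.

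**Figure D1:**
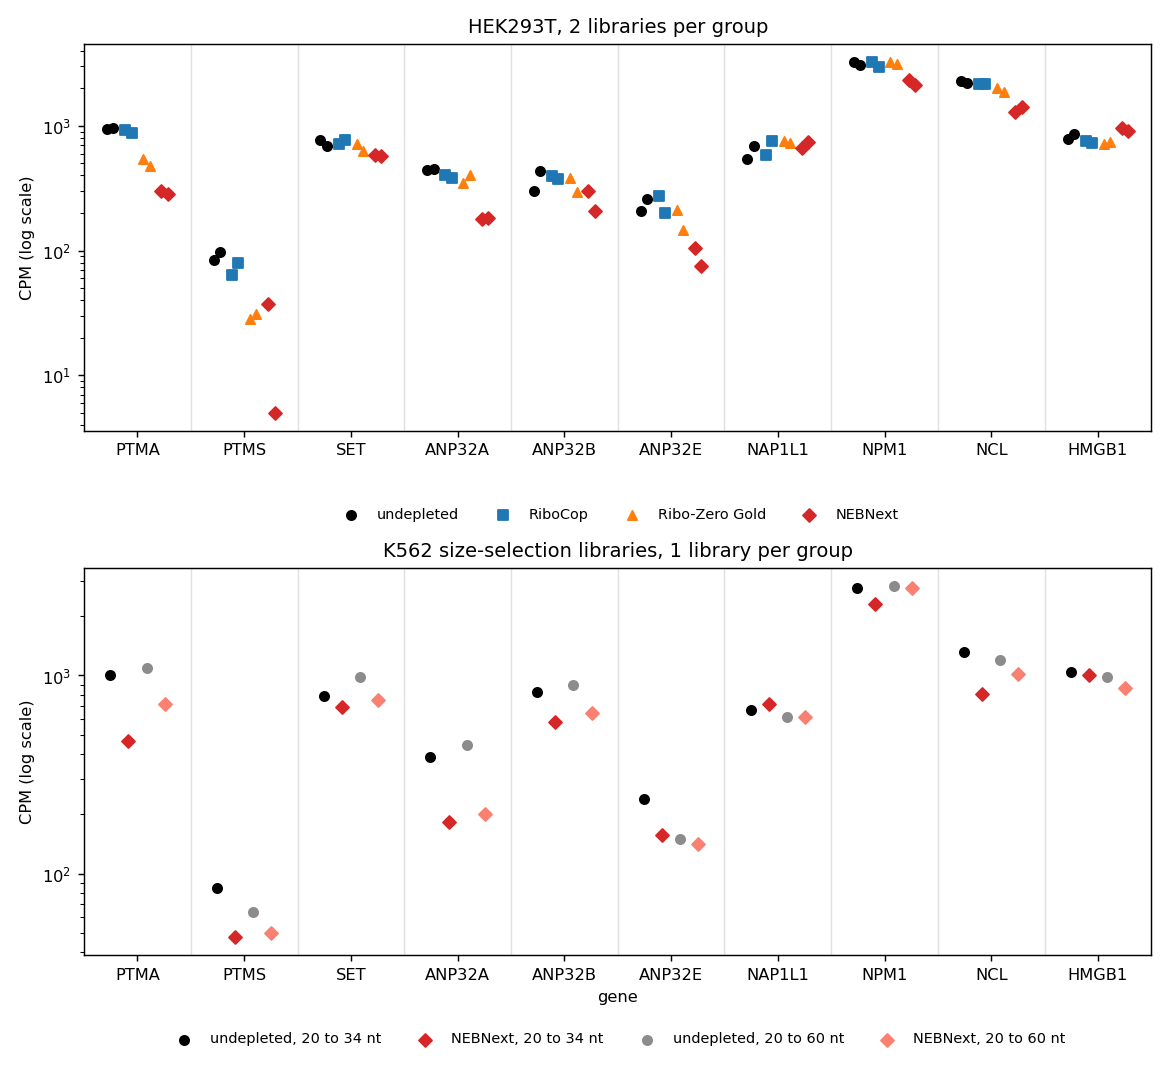
Footprint level (CPM, log scale) of the 10 genes in each library of the HEK293T experiment (top, 2 libraries per group) and of the K562 size-selection experiment (bottom, 1 library per group). In HEK293T the NEBNext points of PTMA (300 and 283 CPM) and ANP32A (180 and 184 CPM) lie well under the undepleted points, while those of HMGB1 lie above them.

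With Ribo-Zero Gold in HEK293T PTMA was lower and none of the other 9 genes passed the test. PTMA stood at 541 and 477 CPM, between the undepleted and NEBNext levels (log2 fold change -0.91 ± 0.13, a description only). PTMS had 28.5 and 30.8 CPM (10 and 13 counts), both under the undepleted libraries. Its log2 fold change of -1.60 ± 0.48 did not pass (edgeR adjusted p 0.358). Of the other 9 genes 0 were called in either direction by edgeR, where 0.068% of all 4410 genes were, and 2 of the 9 had an unadjusted p under 0.05.

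The other genes had values close to undepleted with Ribo-Zero Gold. ANP32A had 347 and 403 CPM and NCL 2006 and 1865 CPM, both pairs below their undepleted libraries by little (log2 fold changes -0.24 ± 0.17 and -0.21 ± 0.08). ANP32E differed by -0.42 ± 0.23. The remaining 5 genes lay between -0.18 (HMGB1) and 0.24 (NAP1L1), and 8 of the 9 had a negative value, against 49.2% of all genes. DESeq2 called none of the 9 either. At an unadjusted p under 0.05, 250 of the 4410 genes differed.

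With RiboCop in HEK293T PTMA had 928 and 874 CPM and edgeR called 0 of the 10 genes in either direction, with 0% of all genes called and 0 of the 10 at an unadjusted p under 0.05. Their log2 fold changes lay between -0.31 (PTMS, 64.0 and 79.2 CPM) and 0.15 (NAP1L1). At an unadjusted p under 0.05, 195 of the 4410 genes differed by edgeR, and DESeq2 called 0. The 3 HEK293T comparisons share the undepleted libraries.

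In the K562 size-selection experiment ANP32A was lower with NEBNext, 1 of the 9 genes other than PTMA, where 0.969% of 3715 genes tested were lower. PTMA also passed the threshold, which is a description, since its fall with NEBNext chose the genes. At 20 to 34 nt PTMA had 1009 CPM undepleted and 467 CPM with NEBNext. At 20 to 60 nt it had 1088 and 721 CPM. It was lower in both size ranges, more so in the shorter one (ratio 0.463, exact 95% interval 0.378 to 0.566, against 0.662, 0.478 to 0.931). The intervals cover counting error only. The log2 fold change of PTMA was -0.87 ± 0.17, a description only. ANP32A went from 389 to 181 CPM and from 448 to 200 CPM, nearly the same fold in both ranges. Its fitted difference was -1.06 ± 0.25 on the log2 scale (edgeR adjusted p 0.0015).

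These K562 values rest on few libraries. The log2 fold change of PTMA, a description only, was -0.75 with DESeq2. It was -0.46 without the NEBNext library of 20 to 34 nt and -0.81 without the undepleted one. Without the undepleted library of 20 to 60 nt it was -0.76. PTMA did not pass the threshold in any of these fits. ANP32A lost its call without each of the same libraries in turn, with log2 fold changes of -0.95, -1.14 and -0.99. DESeq2 gave ANP32A no adjusted p. The fits without a library have no term for size.

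The other 8 genes were not called in K562 with NEBNext. NCL went from 1319 to 805 CPM and from 1195 to 1022 CPM, a fitted difference of -0.49 ± 0.16 on the log2 scale (edgeR adjusted p 0.0721). Without the NEBNext library of 20 to 60 nt the call on NCL was made (-0.59, edgeR adjusted p 7.29e-05). PTMS went from 84.1 to 47.6 CPM and from 64.0 to 50.1 CPM, on 3 to 21 counts a library (-0.64 ± 0.52). ANP32B (-0.44), ANP32E (-0.43), SET (-0.21), NPM1 (-0.12) and HMGB1 (-0.05) were negative and NAP1L1 (0.13) positive, so ANP32A, PTMA and PTMS had the lowest values and HMGB1 and NAP1L1 the highest. HMGB1 and NAP1L1 also had the highest values in HEK293T. In all, 8 of the 9 genes other than PTMA were negative against 50.5% of all genes.

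The NEBNext effect was not shown to differ between HEK293T and K562 for any of the 9 genes other than PTMA (0 called by edgeR or DESeq2, where edgeR called 0.296% of 4736 genes in either direction, and 3 of the 9 had an unadjusted p under 0.05). The largest differences among the 9 were in PTMS (-1.65 ± 0.79) and ANP32E (-1.01 ± 0.44). PTMA differed by -0.84 ± 0.24, a description only, since its fall with NEBNext chose the genes. In ANP32A the difference was -0.23 ± 0.33. The lines come from separate experiments, so the 2 cannot be told apart.

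**Figure D2:**
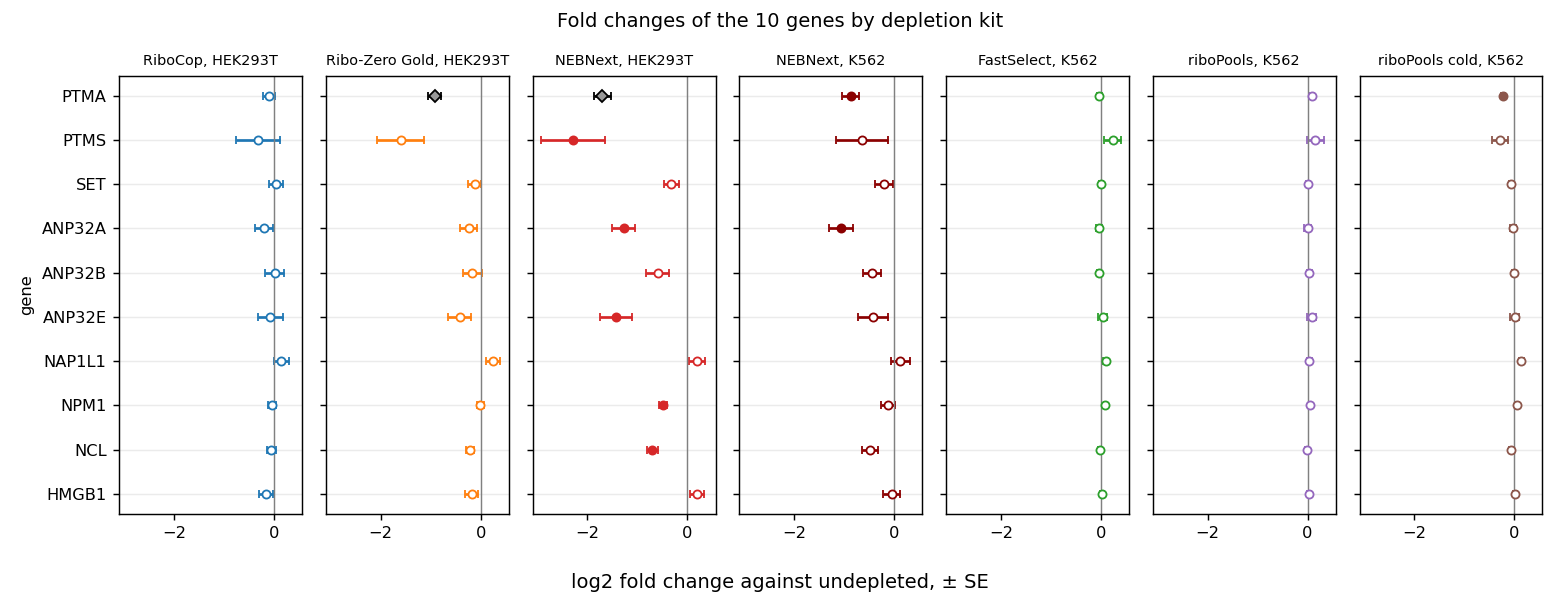
Log2 fold change ± SE of the 10 genes against undepleted libraries for 7 comparisons. Circles are filled at an edgeR adjusted p under 0.05 and open above it. Grey diamonds mark PTMA with NEBNext and Ribo-Zero Gold in HEK293T. PTMA with NEBNext in K562 is drawn as a circle but is likewise a description. Both NEBNext panels have ANP32A below -1 and NAP1L1 above 0, and the K562 panels of FastSelect and riboPools stay within 0.24 of 0.

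In the K562 kit experiment the deeper libraries gave smaller errors, and FastSelect and standard riboPools gave no call on the 10 genes. PTMA stood at 624 and 672 CPM undepleted, at 641 and 626 CPM with FastSelect and at 688 and 682 CPM with riboPools. With FastSelect 0 of the 10 genes were called in either direction, where 0.0197% of 10142 genes were, and with riboPools also 0 of the 10, where 0.0887% were. Fitted log2 fold changes lay between -0.04 (ANP32B) and 0.24 (PTMS) with FastSelect and between -0.02 (NCL) and 0.16 (PTMS) with riboPools. The SE of the PTMA fold change was 0.05 in both. At an unadjusted p under 0.05, 2 of the 10 genes differed by edgeR with FastSelect and 0 with riboPools, and DESeq2 called 0 of the 10 in either comparison.

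Cold elution from riboPools was the exception for PTMA. PTMA had 557 and 553 CPM, under all 6 libraries that were undepleted or treated with FastSelect or standard riboPools. Against undepleted its log2 fold change was -0.22 ± 0.05 (edgeR adjusted p 0.000803). It was 1 of 10 genes lower, where 0.0789% of all genes were. The call was lost without undepleted replicate 2 (edgeR adjusted p 0.607), with DESeq2 (adjusted p 1) and with oligos and formaldehyde as additive terms (edgeR adjusted p 1.0).

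A comparison of cold with standard elution was added after PTMA was seen to be low. There PTMA, the 1 of the 10 past the threshold where 0.0197% of genes were, differed by -0.30 ± 0.03 by edgeR and -0.30 ± 0.11 by DESeq2, which did not call it. These are descriptions, since the low values of PTMA prompted the comparison. PTMS had 40.1 and 41.6 CPM with cold elution against 58.0 and 53.8 CPM, without overlap (log2 fold change -0.45 ± 0.11, edgeR adjusted p 0.159). Values of the remaining 8 genes lay between -0.08 (SET) and 0.11 (NAP1L1). ANP32A (-0.02 ± 0.04) and ANP32E (-0.07 ± 0.06) were not called.

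In the Ribo-Zero Plus library without additives PTMA stood at 623 CPM (log2 fold change -0.03 ± 0.06). The kit also digests rRNA, and the part of digestion in any result was not tested. Each Ribo-Zero Plus condition is 1 library, assumed in the fit to vary like the replicated kits. Of the 10 genes only NPM1 was called, higher by 0.09 ± 0.03 (2586 CPM against 2469 and 2465 undepleted, edgeR adjusted p 0.0493), where 8.99% of 10142 genes were higher and 11.4% lower. DESeq2 did not call it. ANP32A (283 CPM) and PTMS (48.4 CPM) were not called (-0.20 ± 0.08 and -0.02 ± 0.21). With total count scaling NPM1 lost its call (0.07) and ANP32A was called lower (-0.23).

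With additives 2 to 6 of the 10 genes were called. In these 3 libraries of 116742 to 184722 counts, 29.4%, 25.7% and 30.1% of all genes were called with oligos, formaldehyde and both, and the median log2 fold change of all genes was -0.64, -1.25 and -0.81. Summed K562 markers stood at 9030, 5773 and 3409 CPM there against 11330 and 10955 CPM undepleted, and their part in the results was not tested. With oligos ANP32A (114 CPM, -1.69 ± 0.26 on the log2 scale, edgeR adjusted p 1.8e-07) and ANP32B (433 CPM, -0.80 ± 0.15) were 2 of 10 genes lower, where 19.9% of all genes were, and PTMA had 704 CPM (-0.03).

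With formaldehyde SET (300 CPM, log2 fold change -1.73 ± 0.20), ANP32B (240 CPM, -1.74 ± 0.22), ANP32E (77.1 CPM, -1.29 ± 0.42), PTMA (523 CPM, -0.54 ± 0.18) and HMGB1 (694 CPM, -0.42 ± 0.16) were 5 of 10 genes lower, where 18.4% of all genes were. NPM1 (3743 CPM, 0.37 ± 0.07) was 1 higher, where 7.31% were. DESeq2 kept 3 of these 6 calls. With total count scaling, which raised the median of all genes to -1.02, 2 were lower (SET and ANP32B) and 2 higher (NPM1 and NAP1L1), and PTMA stood at -0.31 (edgeR adjusted p 0.200). Of all calls 28.5% were higher with TMM and 44.0% with total count scaling. Without undepleted replicate 2 HMGB1 lost its call, with a value of -0.40. With both additives SET (642 CPM, -0.56 ± 0.14), ANP32B (563 CPM, -0.43 ± 0.15) and PTMS were 3 lower, where 20.7% were, and NPM1 (4456 CPM, 0.69 ± 0.06) was higher, where 9.36% were. Without undepleted replicate 1 ANP32B lost that call (edgeR adjusted p 0.0978). PTMS had 0 counts, where the floor of 3 counts is 18.2 CPM, against 56.4 and 42.6 CPM undepleted. PTMA had 817 CPM with both (0.17 ± 0.13). Its call depended on the setting, since it was higher with total count scaling (0.34, edgeR adjusted p 0.0465) and among genes averaging 50 counts or more (0.35, edgeR adjusted p 0.0292). Under either setting 2 genes were lower (SET and PTMS) and 3 higher (NPM1, NAP1L1 and PTMA), and higher genes went from 31.1% of all calls to 41.4% with total count scaling. With oligos the same 2 genes were lower under both settings, and higher genes went from 32.3% of all calls to 42.6% with total count scaling. With TMM and the standard filter ANP32B was called lower in all 3 libraries. Its call with both additives was lost among genes averaging 50 counts or more (-0.26, edgeR adjusted p 0.175). The same call was lost with total count scaling (-0.27, edgeR adjusted p 0.161) and with DESeq2 (-0.22).

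In HEK293FT, with 1 library a group and no replicate check, PTMA stood at 1304 CPM undepleted and 1072 CPM with custom oligos. The ratio of 0.822 (exact 95% interval 0.772 to 0.876) was the lowest of the 10, followed by ANP32E at 0.854 (0.736 to 0.996) and ANP32A at 0.869 (0.769 to 0.984). None of the 10 passed a 1.5-fold difference, which 1.3% of 5225 genes averaging 100 counts or more did. All 10 were on the lower side, where 49.7% of genes were, by a median log2 ratio of -0.07.

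HMGB1 and PTMA can be compared within each library, where depth cancels. The ratio of HMGB1 to PTMA counts was 0.833 and 0.891 in undepleted HEK293T, 0.814 and 0.835 with RiboCop, 1.32 and 1.56 with Ribo-Zero Gold and 3.20 and 3.23 with NEBNext. In K562 at 20 to 34 nt it was 1.04 undepleted and 2.15 with NEBNext, and at 20 to 60 nt 0.902 and 1.20. In the K562 kit experiment it was 1.26 and 1.18 undepleted, between 1.17 and 1.30 with FastSelect and riboPools, 1.44 and 1.42 with cold elution and 0.919 to 1.33 with Ribo-Zero Plus. It was 0.568 and 0.649 in HEK293FT. PTMA is the denominator, so the ratio is not independent of the PTMA values above, and it shows only that the 2 genes changed unequally.

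**Figure D3:**
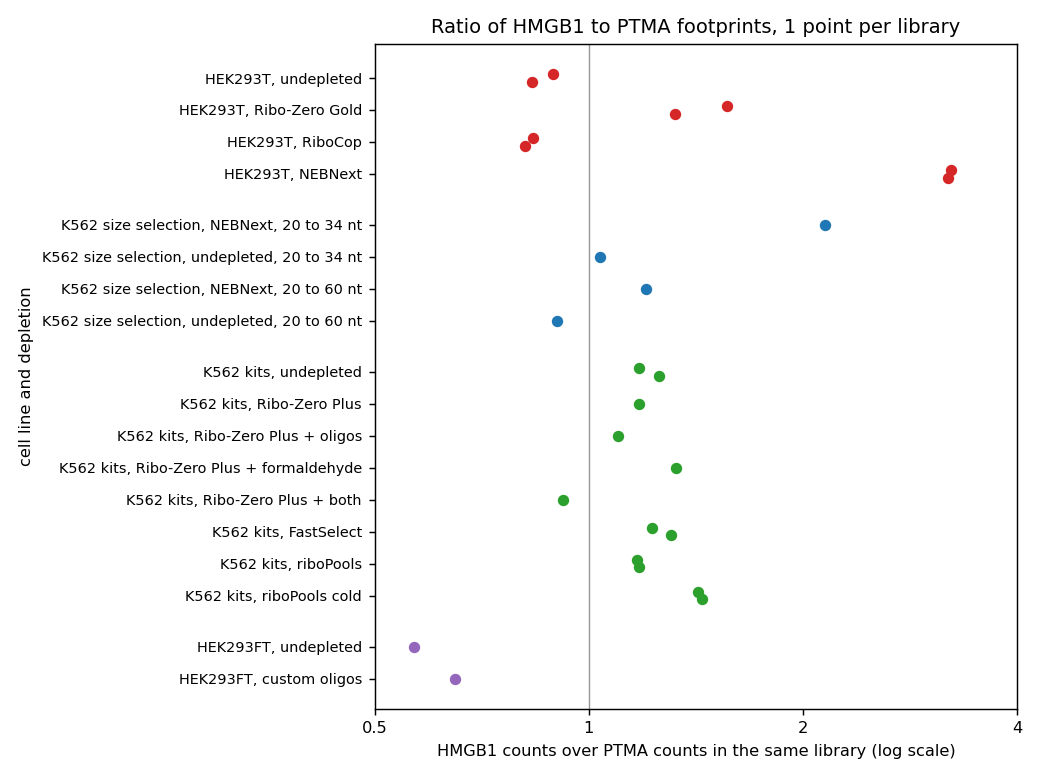
HMGB1 counts divided by PTMA counts in the same library (log scale), 1 point for each of the 26 libraries, coloured by experiment. The NEBNext points of HEK293T at 3.20 and 3.23 lie farthest right, against 0.833 and 0.891 for the undepleted pair.

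Genes with acidic tracts outside the 10 gave a count of those lower near that of all genes. Of 180 other genes with at least 20 acidic residues in a window of 30, 86 were tested with NEBNext in HEK293T. Only BRD2 (-0.80, edgeR adjusted p 0.034), a bromodomain reader of acetylated histones, and PRKCSH (-0.79, edgeR adjusted p 0.0148), a subunit of glucosidase II, were lower, and 0 were higher. That is 2.33% of them, beside 1.75% of all genes. Their median was -0.13 and 64.0% were negative, against 49.9% of all genes. With a stricter rule of 24 acidic residues, 0 of 24 other genes were called by edgeR, 3 had an unadjusted p under 0.05 and the median was -0.27. DESeq2 called 0 of 47 such genes but gave 37 of them no adjusted p. Of 89 genes with a basic window (at least 16 lysines or arginines in 30), 1 was lower and 2 were higher, with a median of -0.22.

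Unbroken purine runs gave a similar share. Of 274 tested genes outside the 10 with a run of at least 24 purines, 6 were lower with NEBNext in HEK293T (2.19%) and 0 higher, with a median log2 fold change of -0.10. The 6 were HMGN5 (-1.99), GTF2F1 (-1.17), BRD2, PRKCSH, HNRNPU (-0.51) and HSP90AA1 (-0.29). HMGN5 codes a nucleosome-binding protein with a long acidic tail, and HSP90AA1 a protein chaperone. Of 161 with 54 purines in a window of 60 bases, 5 were lower and 0 higher, with a median of -0.17.

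In K562 with NEBNext 0 of 69 other acidic-tract genes were called by edgeR, 6 had an unadjusted p under 0.05 and their median was 0.05. DESeq2 called 0 of 131 such genes but gave 126 of them no adjusted p, so its count cannot decide. Among 214 genes with a purine run, PPIG (-1.19) and LMNB1 (-0.70) were lower, where 0.969% of all genes were. KCNH8 was higher, with 713 and 740 counts against 0 and 2 undepleted. With Ribo-Zero Gold 0 of the 86 acidic-tract genes in HEK293T were called by edgeR or DESeq2, with 2 at an unadjusted p under 0.05 and a median of -0.07. With FastSelect, riboPools and cold elution both tools called 0 of 124 such genes in K562, with 6, 8 and 10 at an unadjusted p under 0.05 and medians of -0.02, 0.00 and -0.03.

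Genes were also grouped by the purine share of the whole coding sequence. The ranges were set after the files were seen and the 10 genes were left out. With NEBNext in HEK293T the median log2 fold change went from 0.13 in 695 genes under 50% purine, through 0.05 (50 to 55%, 2234 genes) and -0.07 (55 to 60%, 1082 genes), to -0.33 (60 to 65%, 222 genes) and -0.77 in the 31 genes of 65% or more. Genes called lower and higher numbered 2 and 14 in the lowest range, 20 and 0 from 60 to 65%, and 6 and 0 at 65% or more. The 6 were TMA7, HMGN5, EIF3J, HMGN1, TBCA and HMGN2. Their mean counts a library were low, from 16.5 in TMA7 to 34.6 in TBCA, except for HMGN2 at 106. Only HMGN5 and EIF3J came near the acidic list, with 18 acidic residues in their best window. HMGN1, HMGN2 and HMGN5 code nucleosome-binding proteins.

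In K562 the same ranges had medians of 0.06, 0.02, -0.08, -0.16 and, in 24 genes, -0.31. Genes called lower and higher numbered 2 and 16 in the lowest range and 3 and 2 from 60 to 65%. In the highest range 4 genes were lower (TMA7, HMGN2, PPIG and TMSB4X) and 0 higher. TMA7 and HMGN2 are thus among the called genes in both cell lines, TMA7 on a mean of only 12 counts a library in K562. With Ribo-Zero Gold the medians lay between -0.22 and 0.02, the lowest in the highest range, and with RiboCop between -0.04 and 0.03. With cold elution the highest range had a median of -0.08 in 47 genes, against 0.01 in the lowest. In FastSelect, riboPools and plain Ribo-Zero Plus the highest range stood at -0.02, -0.03 and -0.05.

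Set against these ranges, the 10 genes kept their order only in part. PTMS (80.4% purine) and PTMA (74.5%) had the largest falls in HEK293T and lay beyond nearly all other genes in purine share. ANP32E and ANP32A, at 66.8% and 65.2%, came next. HMGB1, at 65.7%, stood at 0.19 where the range's median was -0.77. NCL, ANP32B, SET and NPM1, from 61.0% to 64.8%, stood at -0.70, -0.60, -0.32 and -0.49 beside a median of -0.33. NAP1L1, with the lowest share, was not lower. These are descriptions across genes, which share libraries and are not independent replicates.

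**Figure D4:**
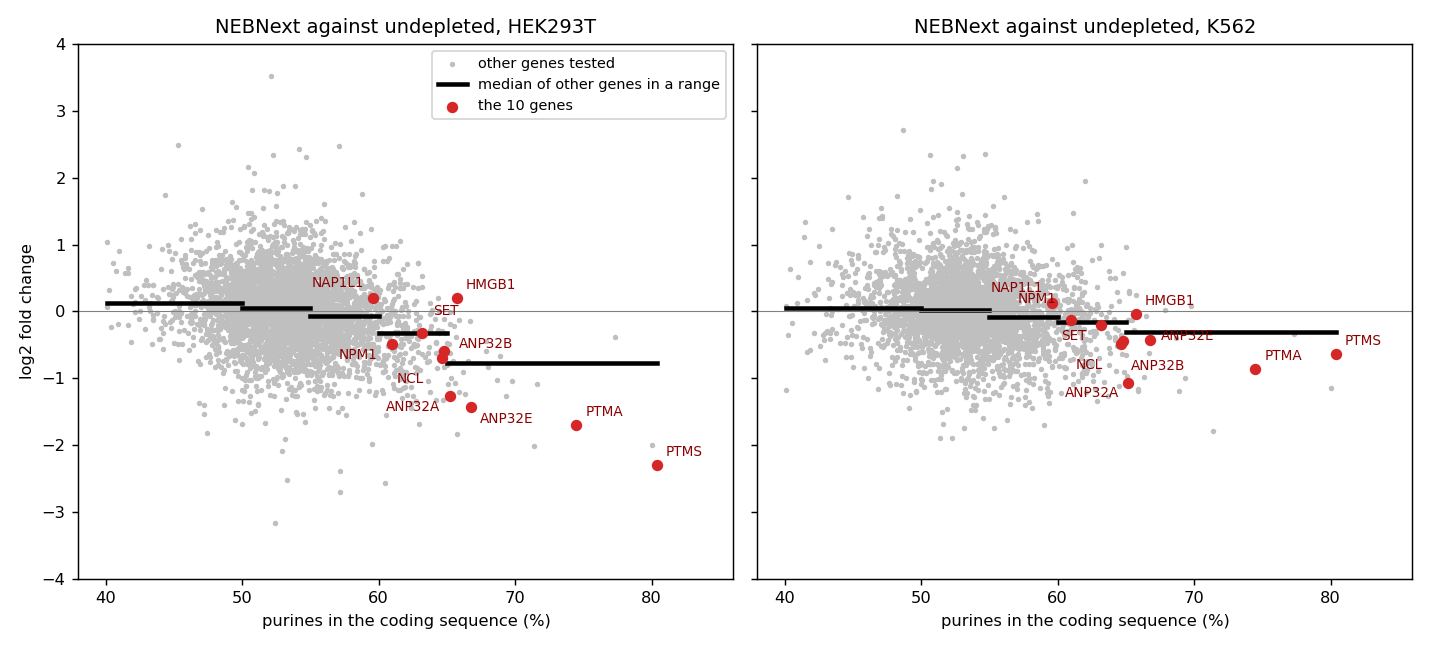
Log2 fold change with NEBNext against the percentage of purines in the coding sequence, 1 point per gene tested, for HEK293T (left) and K562 (right), with black bars at the median of the other genes in a range and the 10 genes in red (5 other points lie outside the vertical axis). The bars step down to -0.77 in HEK293T and -0.31 in K562 at 65% or more, and HMGB1 lies above the bar of its range in both.

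Other histone chaperones and related nuclear proteins, most without such tracts, were taken as a list of 28 genes. With NEBNext in HEK293T edgeR called 0 of 26 tested in either direction, 3 had an unadjusted p under 0.05 and the median log2 fold change was -0.14. DESeq2 called 0 of the 28 but gave 15 of them no adjusted p. With Ribo-Zero Gold, RiboCop, FastSelect, riboPools and cold elution both tools called 0, with 0, 1, 1, 2 and 3 at an unadjusted p under 0.05. In K562 with NEBNext 1 of 22 was higher, NPM3, a relative of NPM1, which went from 89.4 to 240 CPM and from 42.7 to 125 CPM, and 0 were lower. Its difference of 1.49 ± 0.36 on the log2 scale (edgeR adjusted p 0.00362) rests on 2 counts in the undepleted library of 20 to 60 nt. DESeq2 called 0 of the 28 in that comparison but gave 22 of them no adjusted p, so its count cannot decide.

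In the plain Ribo-Zero Plus library edgeR called 7 of the 28 lower and 4 higher, where 11.4% and 8.99% of all genes were, and DESeq2 called 0. ATRX, a chromatin remodeller that works with a chaperone of histone H3.3, had 5 counts (2.72 CPM against 23.8 and 21.3 CPM undepleted, log2 fold change -3.01 ± 0.51). ASF1A, a carrier of H3-H4, fell by 0.94 ± 0.22 on the log2 scale. UBTF, an upstream activator of rRNA transcription with a window of 26 acidic residues, fell by 0.63 ± 0.14, and TSPYL1, of the NAP family, rose by 0.72 ± 0.15. With oligos 7 were lower and 1 higher, with formaldehyde 13 and 3, and with both 8 and 0, several of them at 0 counts. In those libraries 19.9%, 18.4% and 20.7% of all genes were lower.

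The genes whose fold changes came closest to those of PTMA over 8 comparisons (both NEBNext comparisons, Ribo-Zero Gold, RiboCop, FastSelect, riboPools, cold elution and Ribo-Zero Plus) were sought among 620 genes averaging 50 counts or more in each of the 3 tables. ANP32A was nearest, at a Euclidean distance of 0.874 where the median gene was at 2.17. HNRNPH3 (1.22), HMGN2 (1.23), RPL19 (1.26) and FBL (1.28) followed. Of the other members NCL ranked 9, ANP32B 20, NPM1 75, SET 83, HMGB1 330 and NAP1L1 477, and PTMS and ANP32E had too few counts to enter. With Ribo-Zero Gold ANP32A stood at -0.24 where PTMA stood at -0.91. The comparisons share undepleted libraries, and the distances use the PTMA values that chose the genes. The distances are therefore a description.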

How the data were processed

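Ribosome footprints were counted per coding sequence. Per the file headers, the authors deposited 4 tables of whole-number counts with 19478 transcripts each, and RPM values of the same rows, which equal the count over its library total and were not tested separately. Per the submitters' processing notes, CASAVA 1.8 and STAR were used, with GRCh38. Filters, duplicate handling and multi-mapping rules are not given in the sources used here. Samples were grouped by title. The 10 genes, the gene lists and the tests were chosen with earlier results of these data known.

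The test was the quasi-likelihood F-test of edgeR 4.0.16 under R 4.3.3, with TMM, filterByExpr (minimum count 10), Benjamini-Hochberg adjustment over each table, threshold 0.05. All libraries of a table entered 1 fit, with 1 term per kit and 1 for each Ribo-Zero Plus library, and a size term in the K562 size-selection table. All 10 genes passed the filter in each fit. HEK293FT was compared by CPM ratio, and exact 95% intervals (Clopper-Pearson) and floors of 3 counts cover counting error only. Total counts per library were 120019 to 421521 in HEK293T, 46858 to 441249 and 116742 to 5795774 in K562, and 900763 and 5747772 in HEK293FT. Alternatives were DESeq2 1.42.0, total count scaling, 2 other filters, fewer libraries, a replicate block, an additive Ribo-Zero Plus model and leaving out each library.

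Coding sequences came from GENCODE release 29: 96.9% of transcripts had one. Acidic windows were read from its translation. Genes named are the 10, up to 4 called genes of the chaperone list per comparison, the 3 largest falls and rises of the acidic and purine lists with a mean of at least 100 counts, and the 5 nearest PTMA. The other genes named in the tract and purine counts were chosen after their values were seen. 1 cell line marker and 1 sequence are not reported here. Replicate pairs had a chi-square per degree of freedom of 1.027 to 1.205. The highest was that of NEBNext in HEK293T (chi-square test p 8.74e-16), whose fit shares 1 estimate of the spread with the other HEK293T groups. Both RiboCop libraries agreed within counting noise (p 0.103) but carry different barcodes and were kept as 2 libraries. The fit was also tested on simulated data with 200 changed genes (log2 size 1.5), drawn only from genes above a minimum mean count. It recovered 98% for NEBNext in HEK293T (4410 genes, 6.22% of calls false) and 90.5% in K562 (3715 genes, 0.549% false). These rates do not cover genes as shallow as PTMS or smaller differences, such as those of most of the 10 genes.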

Additional observations from a re-analysis of the deposited data

How the results depend on the processing

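Over 1179 recomputed values of the 10 genes, 1127 kept their side of the threshold, among them 72 uncalled values that changed sign, 36 lost a call and 16 gained one. None reversed while called. For NEBNext in HEK293T, 5 of 9 genes lower became 3 with a mean of at least 50 counts (7 tested) and 3 to 5 without 1 library. In K562 with NEBNext 1 of the 9 genes other than PTMA was called (ANP32A), and DESeq2 gave it no adjusted p. With a mean of at least 50 counts (8 of the 10 tested) ANP32B and NCL were called lower too. Calls there also changed when 1 library was left out. The difference between cell lines went from 0 genes to 1 (PTMA, by whose value the 10 were chosen) with a mean of at least 50 counts and to 0 to 1 without 1 library. Cold elution against undepleted went from 1 to 0 with DESeq2 and with additive terms, and 0 to 1 without 1 library, and against standard riboPools from 1 to 0 with DESeq2. Plain Ribo-Zero Plus went from 1 to 0 with DESeq2 or no filter. Without either undepleted library NPM1 lost its call, at a log2 fold change of 0.09. The fit with additive terms called 4 genes, but its Ribo-Zero Plus value averages all 4 libraries of that kit. It is no result for the plain library alone. DESeq2 called 3 instead of 6 genes with formaldehyde and 1 instead of 4 with both additives. The cause was not tested.

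The share of acidic-tract genes lower with NEBNext in HEK293T, the 10 included, was 8.33% and became 18.2% with the stricter rule, by construction richer in the 10. Over all genes, calls for NEBNext ranged from 56 (without NEBNext replicate 2) to 153 around 143 in HEK293T, and from 0 (without the NEBNext library of 20 to 34 nt) to 279 around 101 in K562. For plain Ribo-Zero Plus DESeq2 called 33 genes where edgeR called 2065. A replicate block gave 5 genes for NEBNext in HEK293T, 0 for Ribo-Zero Gold and 1 for cold elution, and changed no call of the 10. Replicate numbers were taken as names only, since the labels tie them to no culture or day and there are 2 numbers. Same-numbered libraries correlated by 0.0651 to 0.137 in HEK293T, over 0.1 in 4 of 6 pairs of groups, and by -0.0364 to 0.0391 in K562. Shallow libraries limit PTMS most, with 1 to 23 counts in HEK293T.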
